A study of Mus musculus with 7 samples.

Results

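Heat shock proteins and chaperonins are the protein-folding machines of the cell, and their genes were followed here in mouse CD8 T cells labelled as knockout or wild type for ACLY. This enzyme, ATP citrate lyase, splits citrate in the cytosol into acetyl-CoA and oxaloacetate. The members were the genes whose symbol in the deposited table matches the names of the HSP70, HSP110, HSP90, HSP60, HSP10, small HSP, DNAJ and TRiC (CCT) families, with pseudogenes left out. This gave 71 of 16156 genes. The rule takes names only, but it was chosen with earlier results of these data known. Total RNA was sequenced from 3 ACLY knockout (KO) and 4 wild type (WT) libraries. In both groups congenically marked OT-I CD8 T cells, whose transgenic receptor recognises an ovalbumin peptide, had been transferred into C57Bl/6 hosts, which 1 day later received ovalbumin-expressing Listeria (LmOVA). The cells were taken back on day 6 of the infection. The cells of the KO libraries are labelled as ACLY knockout and those of the WT libraries as wild type OT-I cells; how and in which cells the gene was deleted is not given in the sources used here. Separate animals are not stated for the libraries, so p-values measure the spread between these libraries, which may be technical.

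HSP70 proteins bind and release unfolded stretches of protein in a cycle driven by ATP. DNAJ proteins bring substrates to HSP70 and start the hydrolysis of ATP, while HSP110 proteins and other exchange factors release the nucleotide. HSP90 acts later, on kinases and receptors that are nearly folded, and TRiC and HSP60 are closed chambers in which a protein folds on its own. Activated T cells grow and divide fast, and they carry high levels of these proteins. The heat shock factor HSF1 drives a part of the cytosolic genes through heat shock elements, and the unfolded protein response drives those of the endoplasmic reticulum (ER).

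The gene counts summed to 37473484 to 39692359 in the KO libraries and 45288353 to 75586011 in the WT libraries. Values are CPM, counts scaled to a common library size with TMM factors, and differences are log2 KO minus WT from edgeR's quasi-likelihood test over all genes. Acly itself had 262, 62.0 and 209 CPM in KO replicates 1 to 3, against 393, 339, 414 and 276 CPM in WT replicates 1 to 4. Each library labelled KO was below each WT library, but none was near 0. The difference did not pass after Benjamini-Hochberg adjustment in edgeR (adjusted p = 0.278) or DESeq2 (adjusted p = 0.133), but did in limma voom (adjusted p = 0.0449). The beta chain of the OT-I receptor belongs to the V segments Trbv12-1 and Trbv12-2. Of all counts on T cell receptor beta V segments, these took 47.3%, 23.7% and 62.2% in KO replicates 1 to 3. In WT replicates 1 to 4 they took 99.0%, 99.2%, 99.0% and 84.6%. The exact 95% interval of the lowest share, in KO replicate 2, was 23.0% to 24.3%, for counting error only. The 9 B cell and plasma cell markers measured summed to 9985, 1159 and 637 CPM in KO replicates 1 to 3. In WT replicates 1 to 4 they summed to 318, 254, 357 and 682 CPM. The 10 myeloid markers summed to 77.1 to 1434 CPM in KO and 20.2 to 41.8 CPM in WT. The 4 red cell markers summed to 95.9 to 19252 CPM in KO and 0.499 to 178 CPM in WT. The 3 CD4 T cell markers measured summed to 30.0 to 343 CPM in KO and 8.60 to 20.7 CPM in WT. The 7 CD8 T cell markers, among them Cd3e and Cd8a, were present in each library but summed to 3220 CPM in KO replicate 1, against 7762 and 7643 CPM in KO replicates 2 and 3 and 6916 to 9427 CPM in WT. WT replicate 4 also stood apart, with 5842 CPM over 20 cell cycle genes, against 974 to 1722 CPM in the KO libraries and 1067 to 1141 CPM in the other WT libraries. In bulk RNA, fewer cells of a type and less RNA per cell cannot be told apart, and the part of these other cells in the values below was not tested.

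Most chaperone transcripts differed little in value between the genotypes. None of the 71 genes passed edgeR's test at an adjusted p under 0.05, and neither did any gene in the table (0%). The smallest adjusted p of a member was 0.0973, for Hspa9. The members split evenly, with 34 above 0 and 37 below, and their median log2 difference was -0.03, where that of all genes was -3.62e-05. The difference was under 0.5 in size, on the log2 scale, for 59 of the 71 members (83.1%), against 60.4% of all genes. Members were more often well counted, and among genes with a mean log2 CPM of at least 1 the shares were 86.2% of 65 members and 72.4% of 10857 genes. At an unadjusted p under 0.05, 5 members were higher in KO, where 11.0% of all genes were, and 6 were lower, where 7.89% were, so the members' shares of 7.04% and 8.45% lay near or below the background. Among genes with a mean log2 CPM of at least 1, 8.82% were higher and 10.8% lower, against 7.69% and 9.23% of the 65 members. The median log2 difference of these genes was -0.06, and that of the 65 members was -0.04. DESeq2 called 5 members higher (6.81% of the genes it tested) and 0 lower (3.43%), and limma voom called 2 higher (5.32%) and 0 lower (1.68%). For 5 members the lowest KO value exceeded the highest WT value, as it did for 9.46% of all genes, and for 7 members the highest KO value was under the lowest WT value, as for 9.04%. Without KO replicate 1 and WT replicate 4 together, edgeR called 2 members higher (5.43% of all genes) and 3 lower (4.20%), and 21 members were separated above (22.6%) and 10 below (25.3%).

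**Figure D1:**
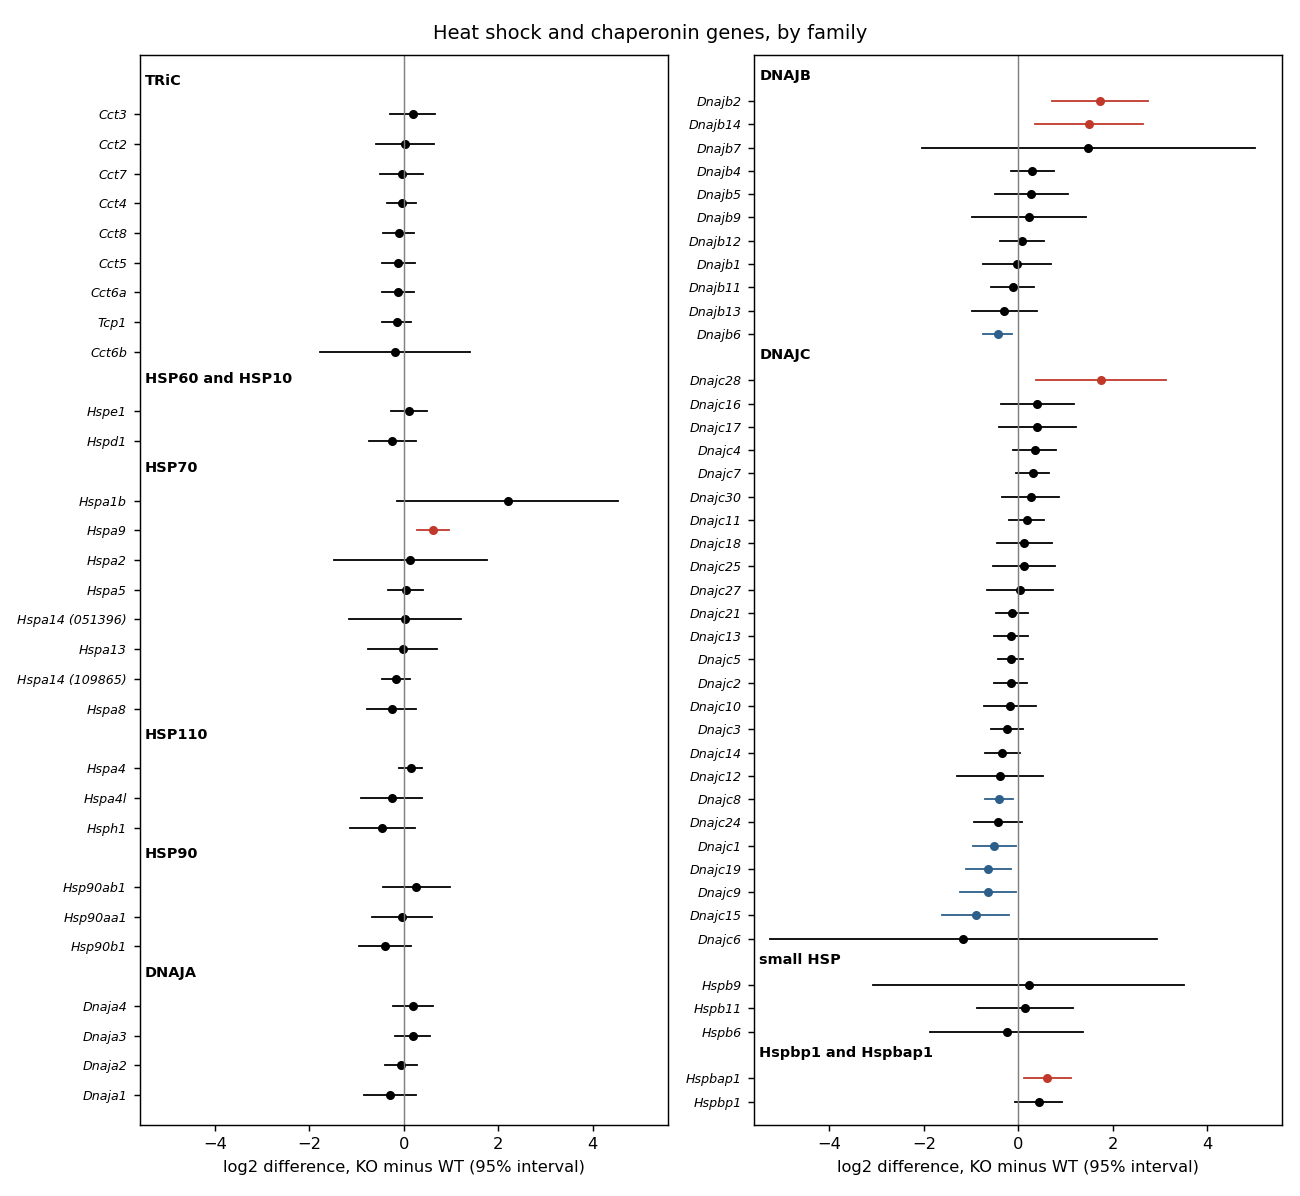
Log2 difference, KO minus WT, of the members with its 95% interval from the edgeR fit, by family; red marks an unadjusted p under 0.05 with a higher value in KO and blue one with a lower value. Most points lie within 0.5 of the line at 0, and 11 members are coloured.

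TRiC is the ring-shaped chaperonin of the cytosol that folds actin and tubulin, and its subunits come from Tcp1, Cct2, Cct3, Cct4, Cct5, Cct6a, Cct7 and Cct8. The level of no subunit differed between the genotypes by more than the spread between libraries. Cct5 stood at 293, 329 and 330 CPM in KO replicates 1 to 3, against 313, 326, 312 and 425 CPM in WT replicates 1 to 4. Cct8 was at 289, 303 and 349 CPM in KO, against 315, 342, 302 and 390 CPM in WT. Cct4 was at 179, 208 and 200 CPM in KO, against 190, 193, 190 and 236 CPM in WT. In these genes the KO libraries lay near WT replicates 1 to 3, and WT replicate 4 was the highest of all.

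The same held for most of the ring. Tcp1 was at 144, 182 and 172 CPM in KO, against 173, 179, 175 and 208 CPM in WT. Cct2 was at 140, 191 and 211 CPM in KO, against 148, 140, 157 and 264 CPM in WT. Cct7 was at 268, 318 and 301 CPM in KO, against 267, 257, 280 and 417 CPM in WT. WT replicate 4 held the highest value of the 7 libraries in 7 of the 8 subunits, as it did for 3352 of all 16156 genes. This stands next to its high cell cycle sum given above. Cct6a was at 209, 270 and 256 CPM in KO, against 247, 274, 242 and 302 CPM in WT, but 12.5% of its exon length overlaps Psph on the other strand. Cct3 was the exception, with 208, 314 and 232 CPM in KO, against 211, 169, 233 and 266 CPM in WT, so that KO replicate 2 was on top. KO replicate 1 was the lowest KO library in 8 of 8 subunits, as it was for 4837 of all 16156 genes. It was also the library with the fewest CD8 T cell marker transcripts, and the part of this was not tested.

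The log2 differences of the 8 subunits ran from -0.15 for Tcp1 to 0.19 for Cct3, with adjusted p-values of 0.606 to 0.968 in edgeR. The 95% interval was -0.35 to 0.26 for Cct4 and -0.58 to 0.63 for Cct2, the widest of the ring. The sign of 7 of the 8 subunits turned under some alternative, so no direction is given for the ring. Per kilobase of exon, Cct5 (120 CPM per kb, mean of 7 libraries) and Cct8 (106) stood highest, followed by Cct6a (71.0) and Cct2 (69.8), Cct4 (47.5) and Cct7 (44.4), and Cct3 (36.6) and Tcp1 (35.0). The library ranges of neighbours in this order overlapped, apart from Cct8 and Cct6a. The subunits are built in equal number into the ring, and exon lengths here join the exons of every annotated transcript, which lowers the value of genes with long rare transcripts. Cct6b, a paralog of Cct6a known from testis, was at 0.408 CPM per kb, far below the 8 subunits.

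**Figure D2:**
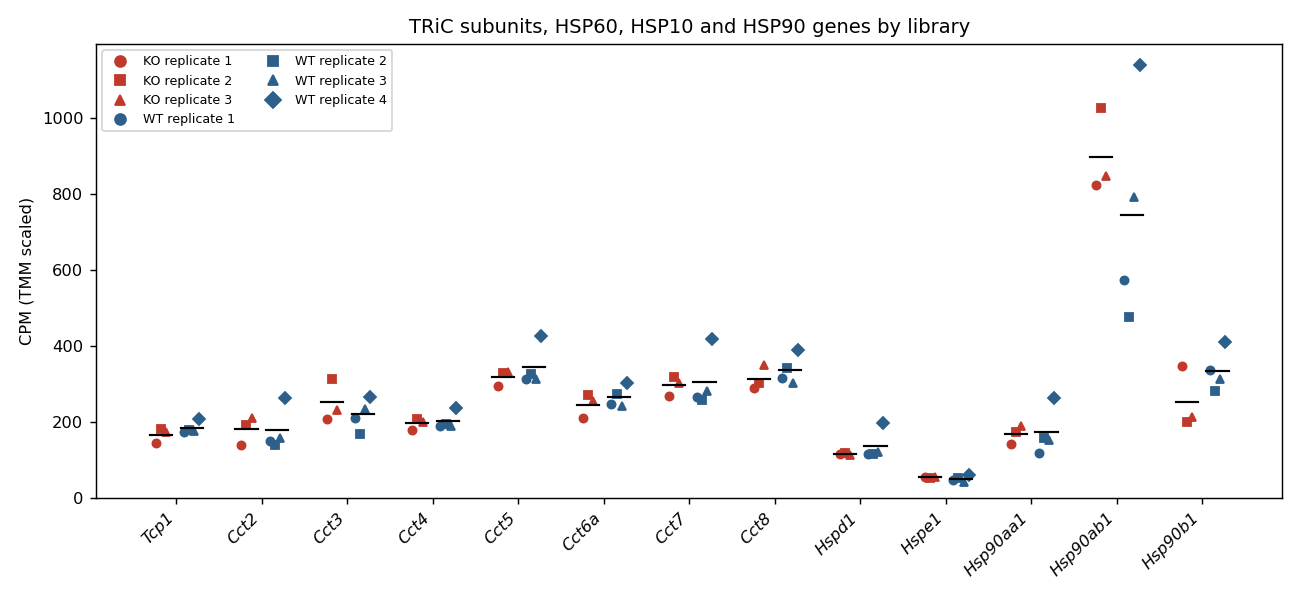
CPM of the 8 TRiC subunits, Hspd1, Hspe1 and the 3 HSP90 genes in each library, KO at left and WT at right of each gene, with a black line at the mean of each group. WT replicate 4 (blue diamond) is on top for 7 of the 8 subunits, for Hspd1 and Hspe1 and for the 3 HSP90 genes.

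Folding partners and substrates of TRiC were described as a list of 21 genes with prefoldin, the phosducin-like proteins, the tubulin cofactors, and actin and tubulin themselves. In KO 18 of the 21 lay below 0, and the median was -0.23 on the log2 scale where that of all genes was -3.62e-05. Among the 10857 genes with a mean log2 CPM of at least 1, 6111 lay below 0, at a median of -0.06. Of these genes 10.8% were lower and 8.82% higher at an unadjusted p under 0.05. None passed in edgeR; at an unadjusted p under 0.05, 4 were lower (7.89% of all genes) and 0 higher (11.0%). WT replicate 4 was the highest of the 7 libraries in 14 of the 21, where it was for 3352 of all 16156 genes. The list summed to 6399 to 8133 CPM in KO, against 13488 CPM in WT replicate 4 and 6377 to 7384 CPM in the other WT libraries. Without WT replicate 4, 13 of the 21 lay below 0 with a median of -0.11, and at an unadjusted p under 0.05 2 were lower and 3 higher. Of all 15659 genes fitted without that library, 7587 lay below 0, at a median of 0.019. Of the 15659, 1556 were lower and 1994 higher at an unadjusted p under 0.05. Pdcl, a phosducin-like protein that helps TRiC assemble G protein beta subunits, was at 46.7, 38.6 and 41.1 CPM in KO, against 61.1, 72.7, 61.8 and 66.9 CPM in WT. Its groups did not overlap (log2 -0.64 ± 0.13, SE, edgeR adjusted p = 0.0761). It passed in DESeq2 (adjusted p = 0.00121) but not in limma voom (adjusted p = 0.0806). Pfdn1, a prefoldin subunit, was at 35.3, 28.4 and 27.6 CPM in KO, against 45.7, 52.9, 37.1 and 79.5 CPM in WT (log2 -0.82 ± 0.27, SE; edgeR adjusted p = 0.169). These values stand beside TRiC subunits whose groups overlapped. The difference between the lists was not tested.

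HSP60 (Hspd1) and HSP10 (Hspe1) form the folding chamber of mitochondria, the barrel and its lid. Their genes lie head to head on chromosome 1, with annotated starts 216 bases apart on opposite strands. The promoter window of Hspe1 is printed because it also covers 285 bases of that of Hspd1, so that both genes share the heat shock elements in it. That of Hsph1, the main inducible HSP110, and that of Dnajb6, a DNAJ protein that holds back aggregation, are the other windows with such an element among the members. The sequences are from RefSeq (GRCm38.p6), 5′ to 3′ on the strand of the gene, from 250 bases before the start to 50 after it. Capitals mark matches to GAANNTTCNNGAA on either strand, 3 inverted units of the heat shock element; the 2 matches in Hspe1 overlap.
Hspe1 (chr1:55087898-55088197, plus strand): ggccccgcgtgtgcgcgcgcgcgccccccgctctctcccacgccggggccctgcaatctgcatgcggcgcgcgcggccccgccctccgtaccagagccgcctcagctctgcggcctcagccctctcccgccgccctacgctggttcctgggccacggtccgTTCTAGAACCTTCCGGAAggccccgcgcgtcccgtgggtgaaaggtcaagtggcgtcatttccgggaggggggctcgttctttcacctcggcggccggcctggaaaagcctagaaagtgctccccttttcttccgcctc
Hsph1 (chr5:149636266-149636565, minus strand): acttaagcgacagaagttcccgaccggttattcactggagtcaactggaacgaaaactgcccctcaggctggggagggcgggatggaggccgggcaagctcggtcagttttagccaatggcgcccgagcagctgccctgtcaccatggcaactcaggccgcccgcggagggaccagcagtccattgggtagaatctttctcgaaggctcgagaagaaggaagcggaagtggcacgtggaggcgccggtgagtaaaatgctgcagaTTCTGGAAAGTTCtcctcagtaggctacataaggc
Dnajb6 (chr5:29735648-29735947, plus strand): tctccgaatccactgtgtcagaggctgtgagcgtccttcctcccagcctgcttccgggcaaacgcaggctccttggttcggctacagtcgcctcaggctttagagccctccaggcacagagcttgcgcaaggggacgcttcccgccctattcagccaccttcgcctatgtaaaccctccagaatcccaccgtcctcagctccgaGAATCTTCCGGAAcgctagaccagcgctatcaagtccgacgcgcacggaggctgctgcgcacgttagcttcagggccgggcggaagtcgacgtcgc
Of 57 members with a promoter in the RefSeq table, 4 held such a match (Dnajb6, Hspd1, Hspe1 and Hsph1), where 0.603% of all 32817 windows did. Members were counted by gene, with any window, and the background by single window, so the shares are not alike. Hspd1 and Hspe1 were both counted for the stretch they share. A match is only a description of the letters.

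Hspd1 was nearly flat over 6 of the 7 libraries. It was at 116, 118 and 114 CPM in KO, against 116, 114, 120 and 198 CPM in WT, where WT replicate 4 alone stood apart. The log2 difference of -0.24 (95% interval -0.74 to 0.26; edgeR adjusted p = 0.604) was -0.01 without that library. Hspe1 was at 53.3, 52.9 and 54.8 CPM in KO, against 45.4, 51.3, 40.5 and 60.7 CPM in WT (log2 0.12; edgeR adjusted p = 0.753), so the KO values lay inside the WT range. A small share of the exons of both genes overlaps that of the other (4.24% of Hspd1), so reads there cannot be assigned without strand.

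Hspa9 encodes mortalin, the HSP70 of mitochondria that pulls imported proteins through the inner membrane, and had the smallest p-value of the members. Its level was 202, 276 and 275 CPM in KO replicates 1 to 3, against 163, 153, 184 and 154 CPM in WT replicates 1 to 4. Each KO library lay above each WT library. Mean and SD were 251 ± 42.0 CPM over the 3 KO libraries and 163 ± 14.4 CPM over the 4 WT libraries, and the fitted fold was 1.53. The log2 difference was 0.62 ± 0.15 (SE; 95% interval 0.27 to 0.97), which did not pass in edgeR (adjusted p = 0.0973) but did in DESeq2 (adjusted p = 0.00569) and in limma voom (adjusted p = 0.0472). It stayed between 0.55 and 0.75 when any single library was left out, and was 0.74 without both KO replicate 1 and WT replicate 4, where it passed in edgeR (adjusted p = 0.0255). KO replicate 1, with the highest B cell and red cell marker sums, had the lowest KO value of Hspa9. KO replicate 2, with the lowest share of OT-I segments (23.7%), was at 276 CPM, beside 275 CPM in KO replicate 3. It remains in the fit without KO replicate 1 and WT replicate 4. The part of other cells in the Hspa9 level was not tested.

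The DNAJ partners of mortalin at the import motor went the other way in value. Dnajc15 (ENSMUSG00000022013, chr14:77820681-77875125 in mm10) encodes a J protein of the inner membrane related to the motor subunit Dnajc19. Dnajc15 was at 154, 323 and 378 CPM in KO, against 539, 632, 465 and 498 CPM in WT. The highest KO value was under the lowest WT value, and KO replicate 1 stood far below the other KO libraries. Mean and SD were 285 ± 117 CPM over the KO libraries and 533 ± 72.3 CPM over the WT libraries, with a log2 value of -0.90 ± 0.30 (SE; edgeR adjusted p = 0.172), and -0.61 without KO replicate 1. Dnajc19 was at 43.1, 35.5 and 31.4 CPM in KO, against 54.6, 72.6, 43.7 and 56.8 CPM in WT (log2 -0.63 ± 0.21, SE; edgeR adjusted p = 0.165). Its groups were separated by a narrow gap, between KO replicate 1 and WT replicate 3.

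Grpel1, an exchange factor that takes ADP from mortalin, is no member but belongs to the list of 15 mitochondrial folding genes and proteases. It was at 73.3, 77.5 and 81.1 CPM in KO, against 97.7, 112, 90.2 and 110 CPM in WT (log2 -0.41 ± 0.12, SE, edgeR adjusted p = 0.147), again without overlap. Grpel2 of the same list overlapped, at 25.4 to 42.8 CPM in KO and 25.7 to 33.8 CPM in WT (log2 0.10). Timm44 did too, at 47.2 to 54.1 CPM in KO and 48.2 to 56.6 CPM in WT (log2 -0.01). Lonp1, the ATP-dependent protease of the matrix, was at 66.1, 78.3 and 83.1 CPM in KO, against 57.6, 54.6, 56.5 and 67.1 CPM in WT (log2 0.36 ± 0.14, SE; edgeR adjusted p = 0.211). KO replicate 1 was just below WT replicate 4 for this gene. None of the 15 passed in edgeR, with 1 higher and 1 lower at an unadjusted p under 0.05 and a median log2 difference of 0.07 (11.0% and 7.89% of all genes were higher and lower). The count of Hspa9 over that of Grpel1 was 2.76 to 3.56 in KO and 1.37 to 2.04 in WT. These ratios could not overlap, since each gene was already separated between the groups, in opposite directions.

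The 10 mitochondrial members had a median log2 difference of 0.19, with 7 above 0. Dnaja3, the matrix J protein also called Tid1, was at 74.3, 88.2 and 103 CPM in KO, against 76.2, 65.4, 80.4 and 88.4 CPM in WT (edgeR adjusted p = 0.58). Dnajc28, a little-studied mitochondrial J protein, was at 5.48, 1.77 and 7.83 CPM in KO, against 1.64, 2.15, 1.48 and 0.695 CPM in WT. KO replicate 2 fell within the WT range (log2 1.75 ± 0.59, SE; edgeR adjusted p = 0.176, DESeq2 adjusted p = 0.0486). Dnajc4 was at 15.3 to 19.4 CPM in KO and 12.7 to 14.6 CPM in WT. Dnajc11, of the inner membrane junctions, and Dnajc30 had ranges that overlapped. No adjusted p among the mitochondrial members was below that of Hspa9.

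**Figure D3:**
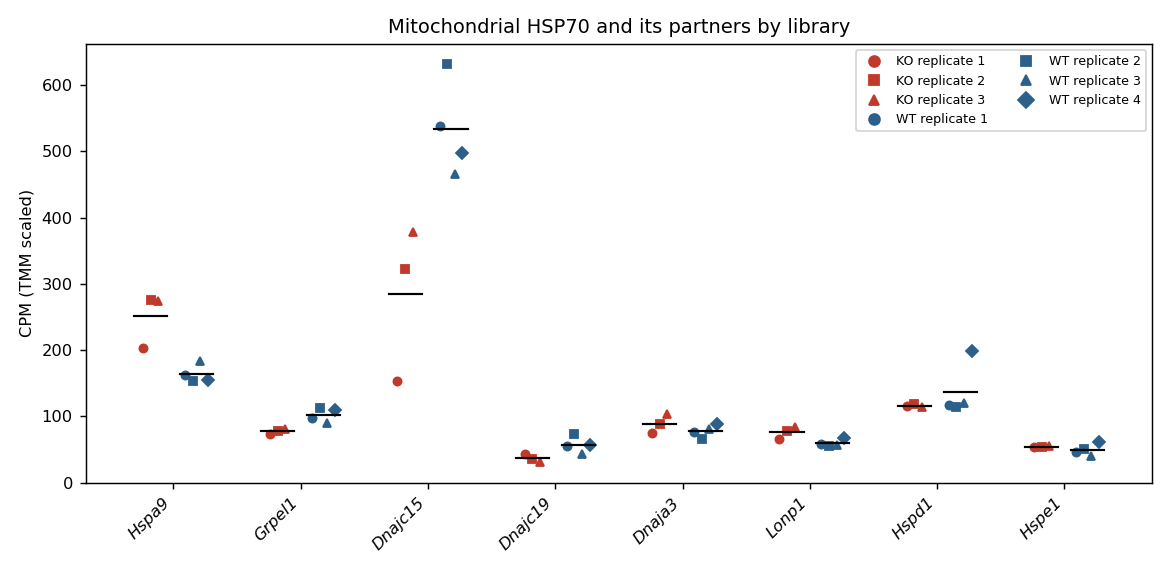
CPM of mitochondrial HSP70 (Hspa9), its exchange factor Grpel1, its J proteins Dnajc15, Dnajc19 and Dnaja3, the protease Lonp1, and HSP60 and HSP10 in each library, KO at left and WT at right of each gene, with a black line at each group mean. Hspa9 is above all WT libraries in each KO library, while Grpel1, Dnajc15 and Dnajc19 are below.

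Hspa8, the constitutive HSP70 of the cytosol, had 155 CPM per kb, the third highest level of the members per length. It was at 441, 607 and 753 CPM in KO, against 609, 613, 837 and 817 CPM in WT, with overlap (log2 -0.26, 95% interval -0.79 to 0.27; edgeR adjusted p = 0.596). Hspa1b, the stress-inducible HSP70, was low throughout. It was at 0.668, 1.82 and 11.1 CPM in KO, against 0.345, 0.740, 0.710 and 2.14 CPM in WT, so only KO replicate 3 was above WT replicate 4. Its log2 difference of 2.20 ± 1.01 (SE; edgeR adjusted p = 0.295) was 0.34 without KO replicate 3. Hspa1a, a near-identical gene, was not analysed here, and reads of the pair can be shared, so the Hspa1b level is uncertain. Hspa2, known from germ cells, was at 2.51 to 7.09 CPM in KO and 1.84 to 10.8 CPM in WT. The table held 2 genes under the name Hspa14, a ribosome-linked HSP70, which overlap on the same strand. The better covered one was at 74.0 to 80.7 CPM in KO and 79.8 to 101 CPM in WT.

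Of the HSP110 exchange factors, Hspa4 was at 207, 224 and 203 CPM in KO, against 189, 188, 201 and 186 CPM in WT (log2 0.15, 95% interval -0.09 to 0.39; edgeR adjusted p = 0.5). Its groups did not overlap, by a narrow gap between KO replicate 3 and WT replicate 3. Hsph1 was at 83.2, 111 and 163 CPM in KO, against 137, 115, 227 and 172 CPM in WT, with overlap (log2 -0.45 ± 0.30, SE; edgeR adjusted p = 0.467). Hspa4l was at 17.6 to 28.9 CPM in KO and 24.8 to 41.6 CPM in WT.

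HSP90 has an inducible (Hsp90aa1) and a constitutive (Hsp90ab1) form in the cytosol and an ER form, Hsp90b1 (GRP94). Hsp90ab1 had the highest level of the members per kilobase, at 270 CPM per kb. It was at 823, 1026 and 847 CPM in KO, against 573, 476, 793 and 1140.1 CPM in WT. The KO libraries lay above WT replicates 1 to 3 and below WT replicate 4, and the log2 difference was 0.27 (edgeR adjusted p = 0.692) with that library and 0.56 without it (edgeR adjusted p = 0.197). Hsp90aa1 was at 141, 172 and 190 CPM in KO, against 119, 157, 151 and 261 CPM in WT (log2 -0.04; edgeR adjusted p = 0.955), and its sign turned without WT replicate 4 or with upper-quartile scaling. Hsp90b1 was at 348, 199 and 212 CPM in KO, against 337, 282, 312 and 409 CPM in WT. KO replicates 2 and 3 were below all WT libraries, whereas KO replicate 1 lay within the WT range. The B cell and plasma cell markers of KO replicate 1 summed to 9985 CPM, and the part of such cells was not tested. The log2 difference was -0.40 ± 0.23 (SE; edgeR adjusted p = 0.409), and -0.57 without KO replicate 1 and WT replicate 4 together, where it passed (adjusted p = 0.0428).

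In the ER, BiP (Hspa5) binds proteins as they enter the lumen and holds the sensors of the unfolded protein response. Its promoter and that of Hsp90b1 are printed because these genes are known targets of that response. Capitals mark matches to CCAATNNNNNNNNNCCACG, the ER stress element, on either strand.
Hspa5 (chr2:34771840-34772139, plus strand): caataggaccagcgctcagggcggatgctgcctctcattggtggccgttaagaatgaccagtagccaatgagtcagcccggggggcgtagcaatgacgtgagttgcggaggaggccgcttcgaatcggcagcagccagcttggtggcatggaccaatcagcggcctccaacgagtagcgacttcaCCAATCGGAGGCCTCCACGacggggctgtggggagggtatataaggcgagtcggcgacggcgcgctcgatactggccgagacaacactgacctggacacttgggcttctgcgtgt
Hsp90b1 (chr10:86705395-86705694, minus strand): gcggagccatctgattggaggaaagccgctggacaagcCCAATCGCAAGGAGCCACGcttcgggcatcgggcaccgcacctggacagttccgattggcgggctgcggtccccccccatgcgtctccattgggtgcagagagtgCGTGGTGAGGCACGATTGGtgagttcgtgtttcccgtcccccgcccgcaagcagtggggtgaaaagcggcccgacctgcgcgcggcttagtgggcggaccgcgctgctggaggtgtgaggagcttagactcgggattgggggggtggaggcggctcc
The element was found in 3 of the 57 members, counted by gene (Dnajc3, Hsp90b1 and Hspa5), and in 0.119% of all windows, counted singly. Hspa5 was at 705, 685 and 745 CPM in KO, against 579, 630, 734 and 818 CPM in WT, with the KO libraries in the middle of the WT range (log2 0.04, 95% interval -0.33 to 0.42; edgeR adjusted p = 0.914). Dnajc3, the ER J protein also called p58IPK, was at 166 to 230 CPM in KO and 217 to 240 CPM in WT (log2 -0.24; edgeR adjusted p = 0.436). The exons of Hsp90b1 overlap 2 other genes over 12.4% of their length, so its level is less certain.

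Of the other ER members, Dnajc1, a J protein of the ER membrane, was at 74.4, 70.5 and 120 CPM in KO, against 129, 122, 121 and 130 CPM in WT. The groups did not overlap, but KO replicate 3 nearly reached WT replicate 3. The log2 difference was -0.51 ± 0.20 (SE; edgeR adjusted p = 0.23), and without KO replicate 3 it was -0.79 and passed (edgeR adjusted p = 0.0473), as 0.291% of all genes did on the lower side. Dnajb11, a soluble J protein that works with BiP, was at 149, 112 and 149 CPM in KO, against 145, 117, 139 and 190 CPM in WT. Dnajb14, a J protein of the ER membrane, was at 12.9, 3.49 and 14.0 CPM in KO, against 4.12, 2.60, 4.01 and 3.54 CPM in WT. KO replicates 1 and 3 were far above WT while KO replicate 2 was within its range (log2 1.50 ± 0.49, SE; edgeR adjusted p = 0.164, DESeq2 adjusted p = 0.0311). KO replicate 2 also held the fewest myeloid marker transcripts of the KO libraries, 77.1 CPM against 1434 and 864 CPM in KO replicates 1 and 3; the part of such cells was not tested. Dnajb9, Dnajb12, Dnajc10, Dnajc25 and Hspa13 had overlapping ranges. Over the 11 ER members the median log2 difference was -0.02.

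Of 21 other genes of ER folding and the unfolded protein response, 11 were above 0 and 10 below, at a median of 0.020 on the log2 scale; the list as first drawn up also held the member Dnajc5, which is no ER gene and is left out here. None passed in edgeR, and 2 were higher and 1 lower at an unadjusted p under 0.05 (11.0% and 7.89% of all genes). KO replicate 1, whose B cell and plasma cell markers summed highest, stood apart in some genes of the list and not in others. Xbp1, a transcription factor of the response, was at 241, 90.7 and 85.3 CPM in KO, against 99.2, 88.9, 103 and 110 CPM in WT. Syvn1, a ubiquitin ligase of ER degradation, was at 219, 56.1 and 54.1 CPM in KO, against 56.6, 54.9, 64.5 and 52.6 CPM in WT. By contrast, KO replicate 1 lay within the WT range for Manf (61.2 CPM, WT 47.5 to 91.2 CPM) and Pdia3 (513 CPM, WT 415 to 749 CPM). The part of B cells and plasma cells was not tested. Ppib, the ER cyclophilin B, was at 48.1, 34.5 and 40.0 CPM in KO, against 72.2, 69.6, 56.7 and 88.5 CPM in WT, without overlap. Its log2 difference was -0.81 ± 0.19 (SE, edgeR adjusted p = 0.0942). It passed in DESeq2 (adjusted p = 0.00652) but not in limma voom (adjusted p = 0.0714). Sil1, the exchange factor of BiP, was at 19.3, 21.8 and 24.0 CPM in KO, against 12.9, 14.4, 13.6 and 16.2 CPM in WT. Its log2 difference of 0.61 ± 0.19 (SE) did not pass in edgeR (adjusted p = 0.156). It passed in DESeq2 (adjusted p = 0.0133) and limma voom (adjusted p = 0.0484). Its groups did not overlap either.

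The 4 DNAJA genes, the closest relatives of bacterial DnaJ, were called by no tool run here (edgeR, DESeq2 and limma voom). Dnaja1 was at 113, 185 and 230 CPM in KO, against 181, 233, 222 and 225 CPM in WT. KO replicate 1 was the lowest of all libraries, and the log2 difference of -0.29 (edgeR adjusted p = 0.571) was -0.05 without it. Dnaja2 was at 180, 243 and 254 CPM in KO, against 237, 241, 235 and 226 CPM in WT (log2 -0.05; edgeR adjusted p = 0.882). The WT values lay close together, and KO replicate 1 was again the low one. Dnaja4 was at 25.2 to 30.6 CPM in KO and 20.0 to 28.1 CPM in WT, but 44.1% of its exon length is shared with Wdr61 on the other strand.

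Dnajb2 (ENSMUSG00000026203, chr1:75236406-75245692 in mm10), a J protein with ubiquitin-binding motifs first known from neurons, had the second smallest p-value of the members. It was at 55.0, 28.0 and 27.7 CPM in KO, against 13.3, 10.3, 16.0 and 4.93 CPM in WT. Each KO library lay above each WT library. Mean and SD were 36.9 ± 15.7 CPM over the KO libraries and 11.1 ± 4.73 CPM over the WT libraries, with a fitted fold of 3.32 (log2 1.73 ± 0.43, SE). It missed the threshold in edgeR (adjusted p = 0.103) and passed in DESeq2 (adjusted p = 0.00191) and limma voom (adjusted p = 0.0344). KO replicate 1 was the highest, as it was for the B cell and red cell marker sums, and the part of such cells was not tested. Without KO replicate 1 the log2 difference was 1.32. Without both KO replicate 1 and WT replicate 4 it was 1.10 and passed in edgeR (adjusted p = 0.0374).

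Dnajb6 was at 85.7, 75.4 and 96.4 CPM in KO, against 118, 128, 110 and 108 CPM in WT. The groups did not overlap, with mean and SD of 85.8 ± 10.5 CPM over the KO libraries and 116 ± 8.92 CPM over the WT libraries (log2 -0.43 ± 0.13, SE; edgeR adjusted p = 0.144). Dnajb1, the HSP40 that works with inducible HSP70, was at 116, 186 and 306 CPM in KO, against 168, 205, 202 and 252 CPM in WT. The KO libraries spanned more than the whole WT range (log2 -0.03, 95% interval -0.75 to 0.70; edgeR adjusted p = 0.973), and the sign of the difference turned with upper-quartile scaling. Dnajb4 was at 33.2 to 43.5 CPM in KO and 24.7 to 37.1 CPM in WT. Dnajb5 and Dnajb13 had overlapping ranges, and the exons of Dnajb13 overlap Ucp2, an abundant gene on the other strand. Dnajb7 was at 0 in KO replicate 3 and in WT replicate 4, which allows up to 0.0801 and 0.0506 CPM (3 counts, before scaling, counting error only).

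The DNAJC family holds J proteins with varied further domains. In KO 15 of its 25 members lay below 0, among 37 of all 71, and the median was -0.16 on the log2 scale. At an unadjusted p under 0.05, 5 were lower and 1 was higher, where 7.89% of all genes were lower and 11.0% higher. Among genes with a mean log2 CPM of at least 1 these shares were 10.8% and 8.82%, and the median was -0.06. Beside Dnajc15, Dnajc19 and Dnajc1 the lower ones were Dnajc8 and Dnajc9. Dnajc8, a nuclear J protein found with the splicing machinery, was at 231, 250 and 253 CPM in KO, against 344, 363, 302 and 289 CPM in WT. The groups did not overlap (log2 -0.41 ± 0.13, SE; edgeR adjusted p = 0.156). Dnajc9, a histone co-chaperone, was at 152, 141 and 145 CPM in KO, against 197, 171, 192 and 348 CPM in WT. Here too the groups did not overlap, and the log2 difference of -0.64 ± 0.25 (SE; edgeR adjusted p = 0.235) was -0.35 without WT replicate 4, the library rich in cell cycle transcripts. Mcm6, a replication helicase subunit of the cell cycle list, was at 225, 169 and 261 CPM in KO, against 292, 279, 328 and 589 CPM in WT. WT replicate 4 was the highest library in each of the 20 genes of that list. With it all 20 lay below 0, at a median of -1.14 on the log2 scale. Without it 15 of the 20, and 8072 of all 15659 genes, lay above 0, with a median of 0.54 in the list. The KO libraries differed here, with a mean log2 CPM over the list of 6.09, 4.69 and 3.71 in KO replicates 1 to 3. It was 4.55, 4.32 and 4.21 in WT replicates 1 to 3, so KO replicate 3 was below these.

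Several DNAJC genes were steady. Dnajc5, the cysteine string protein of vesicles, was at 178, 167 and 173 CPM in KO, against 194, 184, 215 and 178 CPM in WT, so the groups were separated only by decimals at 178 CPM. Dnajc7, which binds both HSP70 and HSP90, was at 172 to 248 CPM in KO and 161 to 189 CPM in WT (edgeR adjusted p = 0.323). Dnajc2, which acts at the ribosome, was at 88.2 to 102 CPM in KO and 97.0 to 132 CPM in WT. Dnajc13 of endosomes was at 61.8 to 83.4 CPM in KO and 70.7 to 93.8 CPM in WT. Dnajc14, whose exons overlap other genes over up to 19.9% of their length, was at 108 to 123 CPM in KO and 109 to 161 CPM in WT; it passed only without KO replicate 1 and WT replicate 4 together (log2 -0.48, edgeR adjusted p = 0.0388). Dnajc12, Dnajc16, Dnajc17, Dnajc18, Dnajc21, Dnajc24 and Dnajc27 had overlapping ranges and adjusted p-values of 0.349 or more. Dnajc6, auxilin, was at 1.98 CPM in KO replicate 1 and at 0 counts in KO replicates 2 and 3 (up to 0.0756 and 0.0801 CPM), against 0.422 to 4.02 CPM in WT.

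**Figure D4:**
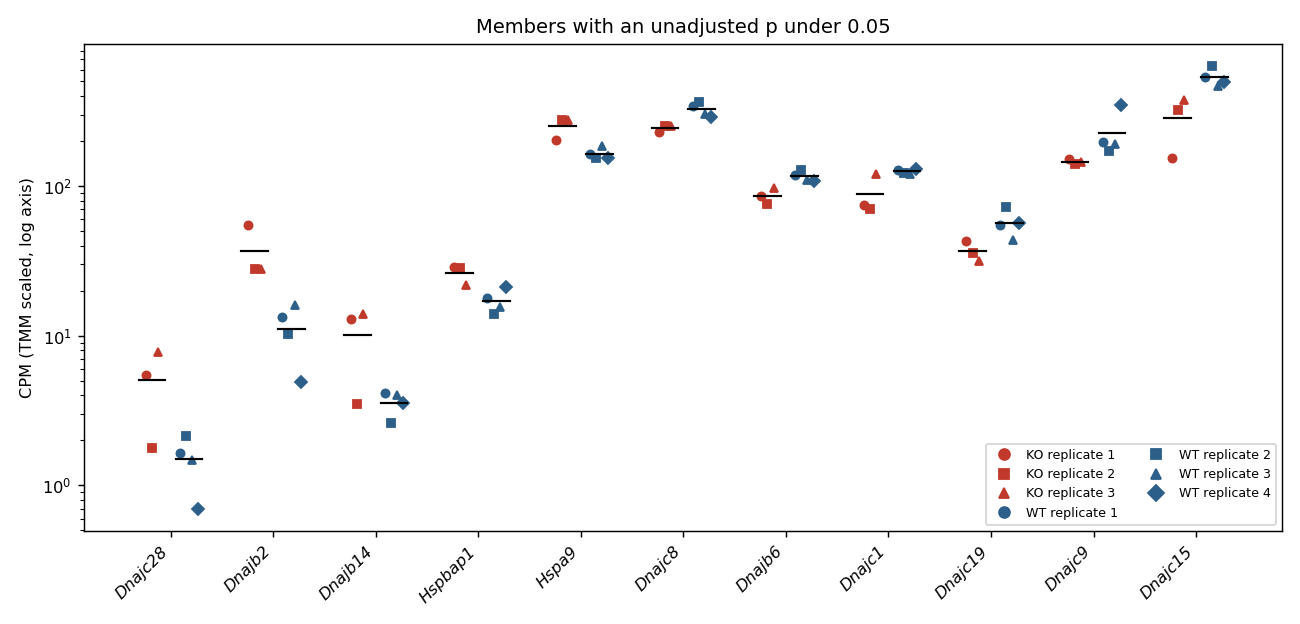
CPM on a log axis of the 11 members with an unadjusted p under 0.05, ordered by log2 difference, in each library, KO at left and WT at right of each gene, with a black line at each group mean. The groups do not overlap for Dnajb2, Hspbap1, Hspa9, Dnajc8, Dnajb6, Dnajc1, Dnajc19, Dnajc9 and Dnajc15, while KO replicate 2 falls among the WT libraries for Dnajc28 and Dnajb14.

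The small HSPs, which hold unfolded proteins without ATP, were scarce. Hspb11, also a subunit of the intraflagellar transport complex, was at 7.11, 9.54 and 5.27 CPM in KO, against 5.32, 5.05, 4.30 and 11.7 CPM in WT. Hspb6 was at 3.37, 6.29 and 0.665 CPM in KO, against 2.99, 2.85, 4.03 and 6.44 CPM in WT. Hspb9 had at most 0.512 CPM in any library. In none of the 3 did the groups separate. The pattern of names also took in Hspbp1 and Hspbap1, which are partners rather than heat shock proteins. Hspbap1, which binds small HSPs, was at 28.6, 28.4 and 21.7 CPM in KO, against 17.8, 14.0, 15.4 and 21.2 CPM in WT, without overlap (log2 0.62 ± 0.22, SE; edgeR adjusted p = 0.188, DESeq2 adjusted p = 0.0484). Hspbp1, an exchange factor of HSP70, was at 58.9 to 88.0 CPM in KO and 44.0 to 66.7 CPM in WT.

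Of 27 co-chaperones of HSP70 and HSP90 and heat shock factors, 17 were below 0 in KO, at a median of -0.04 on the log2 scale. Among genes with a mean log2 CPM of at least 1, 6111 of 10857 were below 0, at a median of -0.06. Chmp5, an ESCRT subunit, and the member Hspbp1 were on the list as first drawn up and are left out here. None passed in edgeR; 0 were higher (11.0% of all genes) and 2 lower (7.89%) at an unadjusted p under 0.05. Hikeshi, which carries HSP70 into the nucleus after heat stress, was at 46.1, 48.3 and 48.8 CPM in KO, against 67.7, 61.7, 60.8 and 77.2 CPM in WT (log2 -0.49 ± 0.13, SE; edgeR adjusted p = 0.121). Fkbp5, an HSP90-bound immunophilin induced by glucocorticoids, was at 91.9, 55.2 and 128 CPM in KO, against 177, 152, 225 and 306 CPM in WT (log2 -1.23 ± 0.34, SE; edgeR adjusted p = 0.128). In both genes the groups did not overlap. Both passed in DESeq2 (adjusted p = 0.0260 for Hikeshi and 0.0106 for Fkbp5). Neither passed in limma voom (adjusted p = 0.118 and 0.0638).

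The 11 measured classical targets of HSF1 gave no common difference between the genotypes, with 4 above 0, 7 below and a median log2 difference of -0.04. None passed in any of edgeR, DESeq2 and limma voom. In 8 of the 11 KO replicate 1 was the lowest KO library, as it was for 4837 of all 16156 genes, and in 8 of the 11 KO replicate 3 was the highest, as it was for 4801. KO replicate 1 also had the lowest sum of CD8 T cell markers, and the part of this in the order was not tested. The immediate early list, which handling of cells can raise together with HSP70, summed to 1956, 5503 and 5453 CPM in KO replicates 1 to 3 and to 2974, 2561, 4954 and 2627 CPM in WT replicates 1 to 4. Of its 14 measured genes 5 were higher in KO at an unadjusted p under 0.05 (11.0% of all genes) and 0 lower (7.89%). Egr3 was at 43.0, 14.3 and 1.79 CPM in KO, against 0.593, 0.853, 0.614 and 1.78 CPM in WT, and Myc at 158, 330 and 186 CPM in KO, against 85.3, 60.6, 96.5 and 141 CPM in WT. The part of handling in the order of the libraries was not tested.

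**Figure D5:**
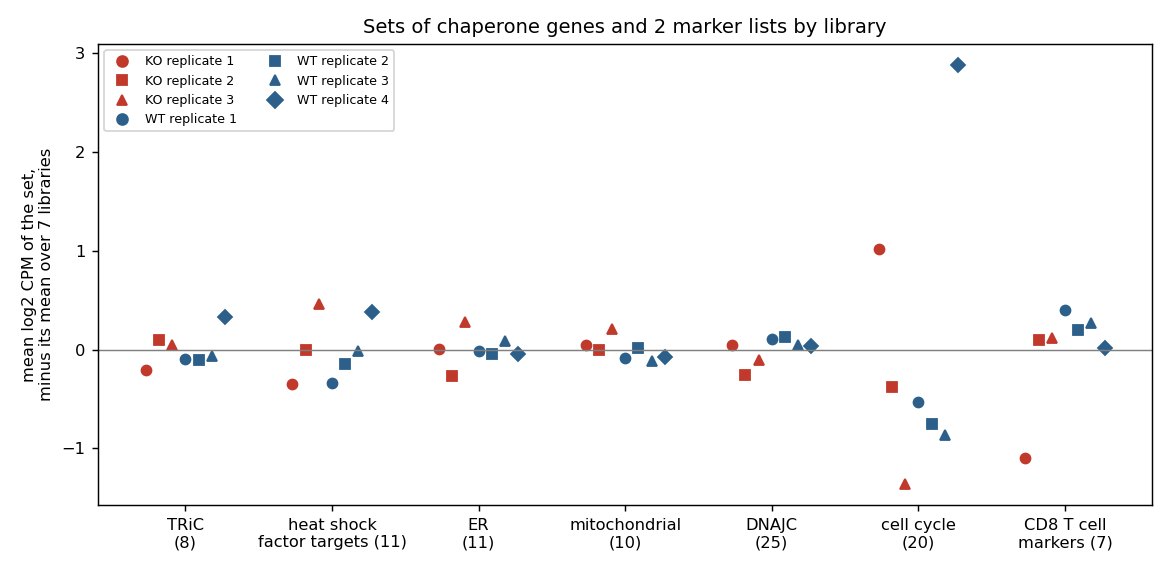
Mean log2 CPM of sets of chaperone genes and of the cell cycle and CD8 T cell marker lists in each library, as the difference from the set's mean over the 7 libraries; numbers of genes stand in brackets. The TRiC, heat shock factor target, ER, mitochondrial and DNAJC sets stay within 0.5 of 0 in each library, while WT replicate 4 stands far up for the cell cycle list and KO replicate 1 far down for the CD8 T cell markers.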

How the data were processed

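RNA sequencing of 3 KO and 4 WT libraries was used. Tools named by the submitters' processing notes are Trim Galore 0.6.0, STAR 2.7.8 and DESeq2 (no version), with the build mm10. How reads were counted, whether by strand, and how genes were filtered is not stated in any source used. Raw counts per gene were deposited by the authors, with a second table of log2 CPM, which differed by at most 4.99e-09 from log2 CPM computed here with TMM scaling and a prior count of 2; gene symbols come from it.

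Genotypes were compared over all genes with edgeR 4.0.16 in R 4.3.3 (quasi-likelihood, genotype as the only term, Benjamini-Hochberg, threshold 0.05; filterByExpr removed 0 genes). Standard errors and 95% intervals come from this fit. Positions, exon lengths and overlaps are from GENCODE M21 (mm10), where all 71 members were found. The choices varied were scaling (median of ratios, upper quartile), the filter on low counts, DESeq2 1.42.0, limma 3.58.1 voom with quality weights, a bias-adjusted fit, a replicate block and libraries left out.

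The members, gene lists and tests were chosen with earlier results of these data known. Named were a fixed set of chaperones, the 10 members with the smallest p and a mean log2 CPM of at least 1, the best counted 2 of the DNAJ and small HSP families and the first 2 of each partner list. Dnajc4, Dnajc5, Dnajc6, Dnajc9, Dnajc14, Hspa4, Xbp1, Syvn1, Manf, Pdia3, Grpel2 and Timm44 were added after their values were seen. A count of 3 was taken as the floor, for counting error only. The values of 1 member are not reported here.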

Additional observations from a re-analysis of the deposited data

Results flagged for a closer look

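Within the 4 WT libraries, 10 of 52 named genes had 1 library far from the other 3 by Dixon's ratio. Chance gives this for about 1 in 20 independent groups, which genes of the same libraries are not. In all 10 it was WT replicate 4 on the high side. Among the chaperonins these were Cct2 (264 CPM, the rest of WT 140 to 157), Cct4 (236 against 190 to 193), Cct5 (425 against 312 to 326), Cct7 (417 against 257 to 280) and Hspd1 (198 against 114 to 120). Among the J proteins and small HSPs they were Dnajc9 (348 CPM against 171 to 197), Dnajc6 (4.02 against 0.422 to 0.828) and Hspb11 (11.7 against 4.30 to 5.32). The cell cycle genes Mcm6 (589 CPM against 279 to 328) and Tyms (146 against 33.8 to 43.5) stood out in the same library. WT replicate 4 was the highest WT library for 6143 of all 16156 genes. The share of all genes with such a ratio is not given, so the count is no result about the named genes. Dnajc6 and Dnajc9 were named after their values were seen.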

How the results depend on the processing

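Counts of members moved with the tool and with the libraries used. At an adjusted p under 0.05, DESeq2 called 5 members higher (6.81% of the genes it tested) and limma voom 2 (5.32%), against 0 in edgeR. Without KO replicate 1 and WT replicate 4 together edgeR called 2 higher (Hspa9 and Dnajb2, with 5.43% of all genes) and 3 lower (4.20%). The lower ones were Hsp90b1, Dnajc14 and Dnajc6, the last at 0 counts in the KO libraries left. Leaving out 1 library each gave 0 to 1 lower calls (Dnajc1 without KO replicate 3). At an unadjusted p under 0.05 the 5 higher members became 8 in DESeq2 and 8 without both libraries. They became 4 to 8 without 1 library (8 without WT replicate 4). Without WT replicate 4, 1994 of all 15659 genes were higher, where 11.0% of all genes were with every library. The shares of all genes in the other settings are not given here. The members separated from WT numbered 6 to 10 above and 7 to 13 below without 1 library. There were 10 above without WT replicate 4 and 13 below without KO replicate 3. Without both libraries 21 were above, as were 22.6% of all genes, against 9.46% of all genes with every library. With upper-quartile scaling 4 were below. The shares of all genes without 1 library or with this scaling are not given, so these counts are no result about the members. The members' median log2 difference of -0.03 was 0.018 with upper-quartile scaling, 0.078 without both libraries and -0.14 to 0.030 without 1 library. The HSP90 median was 0.39 in limma voom and 0.37 without both, that of TRiC 0.046 and 0.078, and that of HSP110 -0.34 to -0.041 without 1 library. Leaving genes out of the ER and co-chaperone lists, and WT replicate 4 out of the partner and cell cycle lists, was chosen after seeing the data. The cause was not tested.

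Of 52 named genes 35 kept their sign under all 16 alternatives. With upper-quartile scaling the log2 difference turned to 0.012 for Cct4, 0.013 for Cct7, 0.017 for Hsp90aa1, 0.032 for Dnajb1 and 0.0070 for Dnaja2. In limma voom it turned to 0.046 for Cct4, 0.016 for Cct5, 0.15 for Cct7, 0.39 for Hsp90aa1 and 0.12 for Dnajb1. Without both libraries it was 0.029 for Tcp1, 0.12 for Cct4, 0.078 for Cct5, 0.065 for Cct6a, 0.23 for Cct7, 0.047 for Cct8, 0.37 for Hsp90aa1, 0.0084 for Hspd1, 0.0091 for Hspa8, 0.38 for Dnajb1, 0.088 for Dnaja2 and 0.093 for Hspb6. Without 1 library the ranges were -0.10 to 0.29 for Cct2, -0.093 to 0.041 for Cct4, -0.16 to 0.0078 for Cct5, -0.12 to 0.15 for Cct7, -0.18 to 0.24 for Hsp90aa1, -0.032 to 0.14 for Hspa5, -0.45 to 0.25 for Dnajb1, -0.15 to 0.086 for Dnaja2, -0.22 to 0.030 for Dnajb11, -0.089 to 0.58 for Hspb11, -1.02 to 0.24 for Hspb6 and -9.26 to 0.054 for Dnajc6, where the fit of Dnajc6 rests on counts of 0.

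Libraries with the same number share only that number: their deviations correlated at -0.11, -0.051 and 0.14. With the replicate block 0 members passed, 5 were higher and 6 lower at an unadjusted p under 0.05, and the difference was 0.034 for Cct4, 0.0023 for Cct5, 0.14 for Cct7, 0.24 for Hsp90aa1 and 0.020 for Dnajb11. With 3 and 4 libraries, differences within the intervals given could not be told from 0.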

Other observations

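The ratio of the Hspd1 count to the Hspe1 count was 2.18, 2.23 and 2.08 in the KO libraries, against 2.57, 2.23, 2.96 and 3.26 in the WT libraries, in replicate order, and this difference was not tested. The ratio of Hsp90aa1 to Hsp90ab1 was 0.171, 0.168 and 0.224 in KO and 0.207, 0.330, 0.190 and 0.229 in WT, with overlap. Hspa9 over Dnajc15 was 1.32, 0.854 and 0.726 in KO and 0.303, 0.242, 0.395 and 0.310 in WT. This ratio could not overlap, since Hspa9 was above and Dnajc15 below all WT libraries in each KO library.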
